A study of Mus musculus with 16 samples.

Results

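In mouse late 2-cell embryos, 4106 H3K4me3 peaks of moderate width stayed marked by H3K4me3 after injection of Hdac1 mutant mRNA while H3K27ac, called over them in control embryos, was not called over them in mutant embryos. They were taken from 86857 H3K4me3 peaks of the control list, and each lay on chromosomes 1 to 19, was 2000 to 10000 bp wide, and overlapped by at least 1 bp a mutant H3K4me3 peak and a control H3K27ac peak but no mutant H3K27ac peak. They were thus selected on the measured peak calls of all 4 lists, so the presence of H3K4me3 and the absence of mutant H3K27ac are descriptions of these regions and were not tested. The study compared embryos injected at the zygote stage with H2O (control) with embryos injected with Hdac1 mutant mRNA (mutant), collected 36 h after fertilization. Both groups were otherwise given the same labels. The labels do not state which residues of Hdac1 were altered, the strain, or how many embryos went into a library.

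H3K27ac and H3K4me3 were each profiled by native chromatin immunoprecipitation of micrococcal nuclease-digested chromatin. The 16 libraries formed 8 groups of 2, an immunoprecipitation group and an input group for each mark and injection. For each immunoprecipitation group there was 1 list of peak positions, 4 lists in all, without heights, counts or scores. No replicate error can therefore be given, depth is unknown, and the 95% Wilson intervals below cover counting error among peaks. "Lost" and "gained" below mean that an H3K27ac peak overlapped the H3K4me3 peak in 1 condition and none did in the other. Peak lists do not measure expression, so the labelled stage was not checked against marker transcripts.

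H3K4me3 is deposited by COMPASS-type methyltransferases, which are guided in part by proteins that bind unmethylated CpG sequence, and it marks the starts of many genes. H3K27ac is deposited mainly by the acetyltransferases p300 and CBP at active promoters and enhancers, and it is removed by deacetylases of the Hdac1 family acting in the Sin3, NuRD and CoREST complexes. In the mouse embryo the 2-cell stage holds the major wave of zygotic genome activation, during which broad H3K4me3 inherited from the oocyte is replaced by narrower peaks at gene starts.

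Promoters from RefSeq (GRCm38.p6) show the kinds of sequence under these peaks. Among members at the window of exactly 1 protein-coding gene, the first 4 are those with a listed start that lay farthest from any mutant H3K27ac peak, and the last 2 are the widest of those wholly under control H3K27ac. Each is the 250 bases upstream of a listed start, 5′ to 3′ in the direction of the gene. Capitals mark matches, on either strand, to the GC box GGGCGG, the ETS motif CCGGAAG, the CCAAT box CCAAT and the TATA box TATAAA.
Hmx1, chr5:35388611-35388860, plus strand: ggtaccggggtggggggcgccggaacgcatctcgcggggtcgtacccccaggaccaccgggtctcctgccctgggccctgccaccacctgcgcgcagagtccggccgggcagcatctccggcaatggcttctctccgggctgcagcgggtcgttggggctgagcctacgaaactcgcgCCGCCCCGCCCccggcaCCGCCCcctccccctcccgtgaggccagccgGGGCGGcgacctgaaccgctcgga
Cacnb2, chr2:14604056-14604305, plus strand: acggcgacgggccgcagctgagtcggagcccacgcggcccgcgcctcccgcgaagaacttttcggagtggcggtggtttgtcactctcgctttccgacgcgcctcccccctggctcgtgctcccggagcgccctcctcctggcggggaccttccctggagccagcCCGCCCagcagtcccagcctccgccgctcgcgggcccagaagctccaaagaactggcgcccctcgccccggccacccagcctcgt
Fignl2, chr15:101054400-101054649, minus strand: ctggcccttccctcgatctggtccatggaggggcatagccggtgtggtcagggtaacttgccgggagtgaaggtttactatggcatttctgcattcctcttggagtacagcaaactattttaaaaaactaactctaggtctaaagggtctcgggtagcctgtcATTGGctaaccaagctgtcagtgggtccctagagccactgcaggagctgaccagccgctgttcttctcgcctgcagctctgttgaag
Hs6st3, chr14:119138015-119138264, plus strand: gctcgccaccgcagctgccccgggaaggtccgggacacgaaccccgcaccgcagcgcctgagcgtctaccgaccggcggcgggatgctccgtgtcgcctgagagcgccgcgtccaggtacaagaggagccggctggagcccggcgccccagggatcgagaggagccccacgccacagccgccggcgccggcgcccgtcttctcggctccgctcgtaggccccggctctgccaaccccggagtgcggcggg
Gtf3c6, chr10:40257713-40257962, minus strand: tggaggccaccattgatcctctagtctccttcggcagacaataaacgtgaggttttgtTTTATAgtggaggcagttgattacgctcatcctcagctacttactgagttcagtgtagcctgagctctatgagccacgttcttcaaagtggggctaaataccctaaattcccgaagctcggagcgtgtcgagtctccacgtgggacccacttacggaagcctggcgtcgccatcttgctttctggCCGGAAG
Pik3cb, chr9:99140212-99140461, minus strand: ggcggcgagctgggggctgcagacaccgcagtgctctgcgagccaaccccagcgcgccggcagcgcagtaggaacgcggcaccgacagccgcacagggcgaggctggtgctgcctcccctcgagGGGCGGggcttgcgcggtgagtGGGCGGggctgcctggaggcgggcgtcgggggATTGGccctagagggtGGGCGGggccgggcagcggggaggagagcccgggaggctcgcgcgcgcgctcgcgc
The Gtf3c6 and Pik3cb promoters lay under control H3K27ac for all 250 bases, under mutant H3K4me3 for all 250 bases, and under mutant H3K27ac for 0 bases. Among the other 4, control H3K27ac covered 33 bases of the Cacnb2 promoter and 0 bases at Hmx1, Fignl2 and Hs6st3, where the control call lay elsewhere in the peak. The printed sequences thus include both promoters that carried control H3K27ac themselves and promoters beside a short control call. The Hmx1 promoter held 29 CpG dinucleotides and 4 GC boxes, the Hs6st3 promoter 36 CpG and no match to the 4 motifs, and the Fignl2 promoter 6 CpG and 1 CCAAT box. The Gtf3c6 promoter ended in an ETS motif next to the start.

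Of the 83220 control H3K4me3 peaks on chromosomes 1 to 19, 33191 were in the width range and 23666 of these (71.3%) overlapped a mutant H3K4me3 peak. Control H3K27ac overlapped 14428 of the retained peaks (61.0%), which are called double-marked here. Of these, 4106, a share of 28.5% (27.7 to 29.2%), had no mutant H3K27ac, and 10322 kept it. Another 4171 retained peaks gained H3K27ac, and 5067 had it in neither condition. With the 2 conditions exchanged in the same rule, 4289 of 14145 double-marked mutant H3K4me3 peaks (30.3%, interval 29.6 to 31.1%) had no control H3K27ac. H3K27ac calls thus differed in both directions, and the share was somewhat higher under the exchanged rule, with intervals that do not overlap. The difference between conditions was not tested, since each has 1 list.

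The members were narrower than the retained peaks that kept H3K27ac, with a median width of 3898.5 bp (quartiles 2874 and 5458) against 4904.5 bp (3391 and 6875). Their H3K4me3 was retained over a similar part of the peak. The median share of bases under mutant H3K4me3 was 87.1% in members and 87.3% in peaks keeping H3K27ac. It was complete in 1374 members (33.5%) and below 10% in 81. In 3610 members (87.9%) the mutant H3K4me3 was a single peak. In 1035 members (25.2%) an overlapping mutant H3K4me3 peak reached beyond the member to sequence that carried mutant H3K27ac. Across members, H3K4me3 therefore stayed over most of the width, and in a minority the same H3K4me3 peak still met H3K27ac nearby.

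Over all members together, control H3K27ac was less extensive than over peaks that kept it. Members had a median of 78.7% of their bases under control H3K27ac, against 91.6% in peaks that kept it. The widest control H3K27ac peak over a member had a median of 4734 bp, against 7576 bp. Among double-marked peaks with a control H3K27ac peak under 2000 bp, 46.5% (44.5 to 48.6%) lost it, and among those with one of at least 20000 bp, 16.7% (14.9 to 18.6%) did. Peaks wholly under control H3K27ac lost it in 22.7% of cases, and those covered for less than 25% in 44.8%. These measures come from the lists that defined the members and describe the selection.

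Loss took 2 forms. In 3040 members (74.0%) every control H3K27ac peak over the member lacked mutant H3K27ac along its whole length. The widest control peak over each had a median width of 3166 bp. In the other 1066 members (26.0%) a control H3K27ac peak that overlapped the member was still called in part, outside the member, in the mutant. The widest control peak over each of these had a median width of 11898 bp (maximum 93516 bp). Of these members, 56.2% lay wholly under control H3K27ac. Peaks keeping H3K27ac had a median of 7576 bp and 40.4%. This form requires a control peak that reaches beyond the member, so its more extensive control H3K27ac follows in part from the split. A median of 24.7% of the summed length of the control peaks over these 1066 members lay under mutant H3K27ac. A first set of regions thus met no control H3K27ac peak that was still called, and a second, smaller set met control peaks called elsewhere along their length. The nearest mutant H3K27ac peak was a median of 5110 bp away in the first set and 1424 bp in the second, which also follows in part from the split.

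Most members lay close to mutant H3K27ac. The median gap was 3769.5 bp (quartiles 1551 and 7892.5), and the largest was 243468 bp. A mutant H3K27ac peak lay within 1 kb of 681 members (16.6%), within 5 kb of 2467 (60.1%), within 10 kb of 3354 (81.7%) and within 50 kb of 4080 (99.4%). It lay on both sides within 5 kb in 613 members (14.9%), on 1 side in 1854 (45.2%) and on neither in 1639 (39.9%). The absence of H3K27ac was thus local for most members. Retained H3K4me3 peaks with no H3K27ac in either condition lay farther from mutant H3K27ac, with a median gap of 5418 bp.

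In sequence outside the members, control H3K27ac covered 45.8% of bases at 0 to 1 kb from the edge and 31.3% at 9 to 10 kb. Mutant H3K27ac covered 3.60% at 0 to 1 kb, 20.6% at 4 to 5 kb and 25.2% at 9 to 10 kb. Around peaks that kept H3K27ac, mutant coverage fell from 52.2% to 34.7% over the same distances. The deficit was deepest beside the members and narrowed with distance. At 19 to 20 kb, control and mutant coverage around members were 30.2% and 25.4%, and around peaks keeping H3K27ac 39.0% and 31.8%. Both classes were chosen for carrying control H3K27ac. Around retained peaks with H3K27ac in neither condition, control and mutant coverage at this distance were 12.1% and 14.1%, and around those gaining it mutant coverage, 19.4%, was also above control coverage, so the order of the 2 lists went with the class. Around members the coverage in both lists exceeded that of the chromosomes as a whole, 9.83% in control and 9.64% in mutant, so members lay in acetylated neighbourhoods in both conditions. The rule excludes mutant H3K27ac from the member itself, and because peaks extend over many bases this reaches into the nearest flank.

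**Figure D1:**
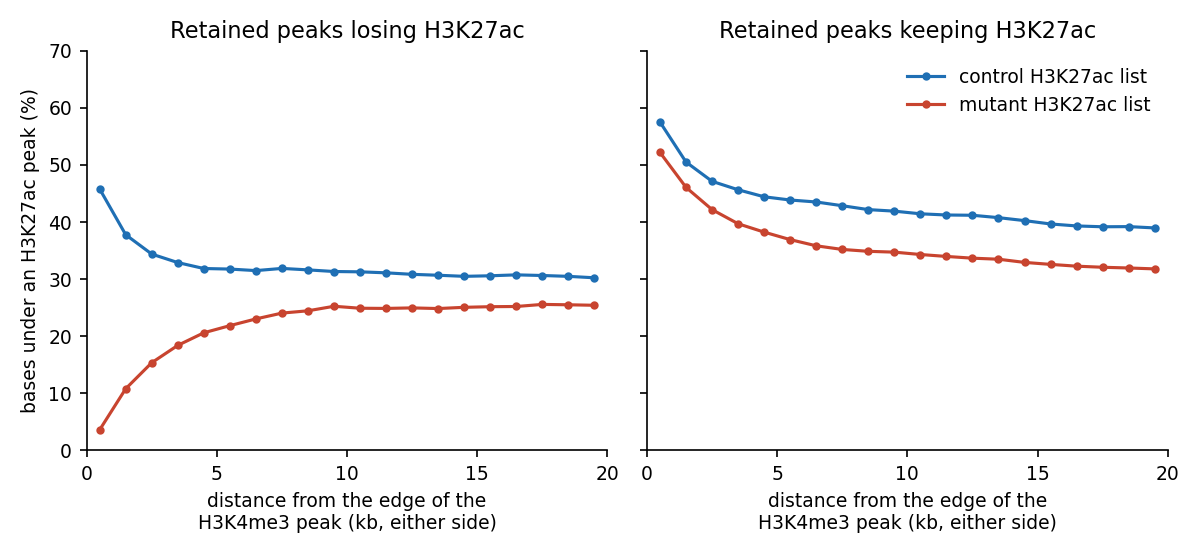
Share of bases under control (blue) and mutant (red) H3K27ac peaks in 1-kb steps from the edges of retained H3K4me3 peaks, both sides together, for the 4106 peaks losing H3K27ac (left) and the 10322 keeping it (right). Beside losing peaks the mutant line starts at 3.60% and reaches 25.4% at 19 to 20 kb, while the control line goes from 45.8% to 30.2%.

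Position relative to genes was not used by the rule. A gene window is the 2 kb on either side of a start listed by RefSeq or, where no start is listed, of both gene ends. In all, 1550 members (37.7%, 36.3 to 39.2%) overlapped the window of a protein-coding gene, against 33.3% (32.4 to 34.3%) of peaks keeping H3K27ac, 40.9% of those gaining it and 42.0% of those without it in either condition. Another 1256 members (30.6%) lay in gene bodies and 1300 (31.7%) between genes. Exons, introns and untranslated regions were not annotated in the tables used. Members as a whole were thus at gene windows more often than the peaks that kept H3K27ac, and less often than retained peaks that carried no control H3K27ac. By form of loss, the share was 39.9% (38.2 to 41.7%) where whole control peaks were absent. It was 31.5% (28.8 to 34.4%) in the other 1066 members, which is not above the share of peaks keeping H3K27ac.

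The loss was more frequent at gene windows than away from them in each of 5 width classes. Among double-marked peaks of 2000 to 2999 bp, 46.2% (42.8 to 49.7%) lost H3K27ac at gene windows and 36.0% (34.0 to 38.0%) elsewhere. Among those of 7000 to 10000 bp the shares were 18.1% (16.1 to 20.3%) and 14.8% (13.1 to 16.6%), whose intervals overlap. Averaged over the width classes, the share was 6.30 percentage points higher at gene windows (interval 4.72 to 7.87, counting error only). A wider peak has more bases at which to meet a mutant H3K27ac peak, so the fall with width is in part set by the rule. Losing peaks at gene windows also had less control H3K27ac than members as a whole, with a median of 62.3% of bases covered. Its part in the difference was not tested.

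**Figure D2:**
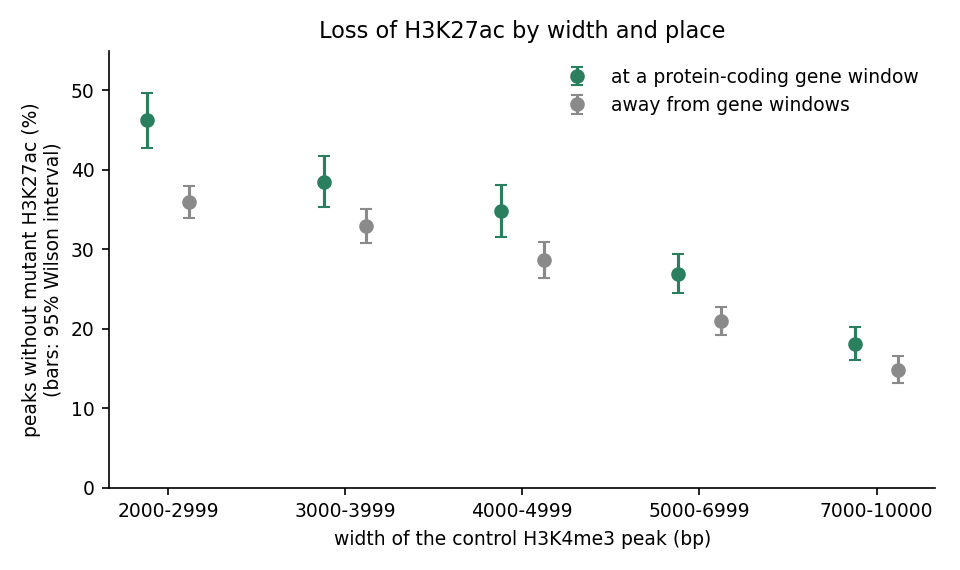
Percent of double-marked retained H3K4me3 peaks that lost H3K27ac, by width of the control H3K4me3 peak in bp, at protein-coding gene windows (green) and away from them (grey). Bars are 95% Wilson intervals. The share falls from 46.2% to 18.1% at gene windows and from 36.0% to 14.8% elsewhere.

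Loss also varied with the gene density of the neighbourhood. Where at most 3 genes lay in the surrounding 500 kb, 34.1% (32.2 to 36.1%) of double-marked peaks lost H3K27ac. Where at least 16 did, 26.3% (24.6 to 28.1%) lost it. Peak width and the extent of control H3K27ac were not held equal in this comparison. By chromosome the share ranged from 25.4% on chromosome 2 to 33.4% on chromosome 14, with a median of 28.4%. Members were thus found on each of the 19 chromosomes.

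The neighbours of members had lost H3K27ac more often than the neighbours of peaks that kept it. When the next double-marked peak along the chromosome was within 5 kb, it had lost H3K27ac in 43.2% of cases after a member and in 17.3% after a peak that kept it. Where the neighbours lay on different control H3K27ac peaks, the shares were 39.1% (34.3 to 44.2%) and 20.2% (17.9 to 22.8%). At 5 to 20 kb they were 28.2% and 25.3%, and at 20 to 100 kb 29.2% and 27.9%, with overlapping intervals. Neighbouring loss thus extended over a few kb. A neighbour within 5 kb can lie in the same stretch without mutant H3K27ac, so nearby pairs are not independent.

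**Figure D3:**
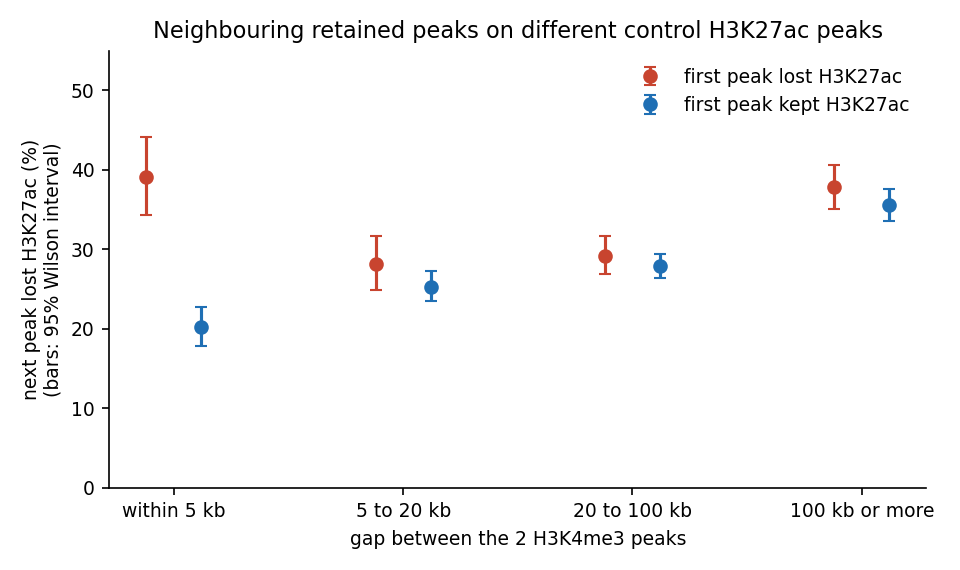
Percent of next double-marked H3K4me3 peaks that lost H3K27ac after a peak that lost it (red) or kept it (blue), by the gap between them, for pairs on different control H3K27ac peaks. Bars are 95% Wilson intervals. The groups differ within 5 kb, 39.1% against 20.2%, and their intervals overlap at each larger gap.

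Of the runs of consecutive double-marked peaks without mutant H3K27ac, with gaps under 100 kb, 2448 held 1 member, 542 held 2, 133 held 3, 28 held 4 and 10 held 5. The longest run held 7 members over chr14:56804503-56884754, at Zmym5 and Zmym2, which encode MYM-type zinc finger proteins. Those members had 62.0 to 100% of their bases under control H3K27ac, and their gaps to mutant H3K27ac ran from 74 to 12138 bp. A run of 6 spanned chr15:79820378-79925181 at Apobec3, a cytidine deaminase gene that restricts retroviruses. A run of 5 at chr14:55570612-55636657 held Psme1 and Psme2, which encode the proteasome activator PA28, together with Rec8, a meiotic cohesin subunit, Ipo4, an importin, and Fitm1, Emc9 and Rnf31. In that run control H3K27ac covered 86.1 to 100% of each member and mutant H3K4me3 26.9 to 98.9%, and the gaps to mutant H3K27ac ran from 444 bp at Rec8 to 22170 bp at Psme2. The runs of 7 and 6 were chosen for their length, and the run of 5, 1 of 10 of that length, for Psme1. All were chosen after the values were seen.

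In all, 5599 protein-coding genes had a double-marked retained peak at their window, and 1784 of them, 31.9%, had at least 1 member. At 1421 of these genes (79.7%) no mutant H3K27ac peak lay in any window of the gene, and at 363 another part of the windows was still acetylated. Counts for gene lists below are read against the 31.9% of all genes. A count close to it says nothing particular about the list.

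The 10 members farthest from mutant H3K27ac, among those at the window of 1 gene, lay at Hmx1, Cacnb2, Fignl2, Kif21b, Hs6st3, Gpc6, Grk3, Erbb4, Slc26a6 and Lcorl. Hmx1, a homeobox factor of eye and ear development, had a member of 3026 bp (chr5:35386909-35389934) that met 57 bp of a 599-bp control H3K27ac peak, and the nearest mutant H3K27ac lay 110631 bp away. Cacnb2, a calcium channel subunit, had a member with 358 bp of control H3K27ac and a gap of 82639 bp. Kif21b, a kinesin, had 113 bp of control H3K27ac and a gap of 72452 bp. In most of this group the control call that was lost was short. Hs6st3, a heparan sulfate sulfotransferase, and Gpc6, a cell-surface heparan sulfate proteoglycan of the glypican family, had 517 and 311 bp.

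Slc26a6, an anion exchanger, had a member of 2817 bp at chr9:108852634-108855450 that lay wholly inside a 10954-bp control H3K27ac peak, with none of that peak called in the mutant and a gap of 53967 bp. Mutant H3K4me3 covered all of it. Grk3, a kinase of G protein-coupled receptors, had 84.4% of its member under a 5574-bp control peak and a gap of 56756 bp. At these loci an extended acetylated domain was absent from the mutant list. Erbb4, a receptor tyrosine kinase, and Lcorl, a nuclear corepressor relative, were intermediate, with 26.4% and 27.4% of the member under control H3K27ac.

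The 5 widest members wholly under control H3K27ac at 1 gene lay at Gtf3c6, Pik3cb, Rbm42, Fam118a and N4bp1. Gtf3c6, a subunit of RNA polymerase III factor TFIIIC, had a member of 9942 bp at chr10:40252797-40262738 inside a 45283-bp control H3K27ac peak. Mutant H3K4me3 covered 51.5% of it, and the nearest mutant H3K27ac lay 5108 bp away. Pik3cb, a catalytic subunit of phosphoinositide 3-kinase, had a member of 9847 bp in a 28375-bp control peak. Each lay in a long control peak that was still called in part, outside the member, except Rbm42, an RNA-binding protein gene. The 13212-bp control peak at Rbm42 was absent as a whole. At Rbm42 and at N4bp1, a ribonuclease gene, mutant H3K4me3 covered 100% of the member. The printed Gtf3c6 and Pik3cb promoters lie in the members at those genes.

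Away from genes, 250 members had no protein-coding gene within 50 kb. The widest, chr11:22743289-22752992, was 94.2% under a 10011-bp control H3K27ac peak that was absent in the mutant, with mutant H3K4me3 on 11.4% of its bases. It lay 81746 bp from B3gnt2 and 224057 bp from Tmem17. The next, at chr4:30776280-30785334 between Epha7 and Map3k7, had 10.7% of its bases under control H3K27ac and 11.2% under mutant H3K4me3. No pattern over such regions is drawn from them.

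Among subunits of the Hdac1 complexes, 3 of 10 genes with a double-marked peak had a member. Sap18, of the Sin3 complex, had a member of 4381 bp (chr14:57796795-57801175) with 71.0% of its bases under control H3K27ac, complete mutant H3K4me3 and a gap of 10578 bp. Chd4, the NuRD remodelling ATPase, had 38.9% under a 17955-bp control peak that was in part still called. Chd3, its paralogue, had 8.43% and kept mutant H3K27ac elsewhere in its windows, which without a listed start are both gene ends. The 7 others, among them Sin3a, Mbd3 and Mta3, kept H3K27ac at each double-marked peak. None of the 7 genes of other deacetylases and their corepressors with a double-marked peak, such as Sirt1, Hdac4 and Ncor1, had a member, with an upper interval bound of 35.4%.

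Among acetyltransferases and acetyl-lysine readers the count was 2 of 10, at Brd7, a bromodomain subunit of the PBAF remodeller, and Mllt1, a YEATS-domain reader. Their members had 32.2% and 54.5% of bases under control H3K27ac. Ep300, Kat2a and Brd3 were among those that kept it. Among H3K4 methylation enzymes the count was 3 of 11, at Kmt2a, a methyltransferase, Men1, its partner menin, and Cxxc1, the CpG-binding subunit of the Setd1 complexes. Control H3K27ac covered 26.9%, 11.4% and 89.7% of these members. The share of genes affected among the enzymes of both marks was near the 31.9% of all genes or had an interval that included it.

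Of 29 matched genes expressed at the 2-cell stage, 7 had a double-marked retained peak and 2 a member. Dppa4, a chromatin-associated factor of early embryos, had a member of 2204 bp (chr16:48296045-48298248) wholly inside a 46683-bp control H3K27ac peak, with mutant H3K27ac 428 bp away and mutant H3K4me3 on 13.5% of its bases. Klf5, a Krüppel-like factor, had a member of 8106 bp with 43.4% of its bases under control H3K27ac and complete mutant H3K4me3. Both genes kept mutant H3K27ac elsewhere in their windows. Neither had a listed start, so these windows are both gene ends, and which end kept it was not determined. No 2-cell gene of the list therefore lost H3K27ac from all its windows through a member.

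Among pluripotency and trophectoderm genes, 3 of 11 had a member. Klf4, a pluripotency factor, had 39.5% of its 4743-bp member (chr4:55529576-55534318) under control H3K27ac and a gap of 8971 bp. Elf5, a trophoblast factor, had 35.1%, and Tbx3, a T-box factor, 2.36%. In these 3 genes no mutant H3K27ac lay in the windows. Nanog, Cdx2 and Sall4 were among the 8 that kept it. Among oocyte and maternal-effect genes the count was also 3 of 11. Zfp57, a zinc finger protein needed to keep imprints, had 2 members, with 100% and 88.5% of bases under a 12859-bp control peak. Padi6, of the oocyte cytoplasmic lattices, had 61.9% and mutant H3K27ac 264 bp away. Bcl2l10, an apoptosis regulator of oocytes, had 4.20%.

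Genes of protein synthesis and turnover were affected at shares close to all genes. Among nucleolar ribosome biogenesis genes, 10 of 28 (35.7%, 20.7 to 54.2%) had a member. Polr1b, the second-largest subunit of RNA polymerase I, had a member of 3906 bp (chr2:129100317-129104222) wholly under a 13317-bp control H3K27ac peak that was absent in the mutant. Bms1, a GTPase of small-subunit assembly, lay farthest from mutant H3K27ac, at 14095 bp, followed by Polr1b at 8620 bp, Utp3 at 8324 bp and Gnl2 at 5332 bp. The median gap over the 10 members was 2906.5 bp, against 4031 bp over the 1550 members at gene windows.

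Cytosolic ribosomal protein genes had a member in 7 of 24 cases (29.2%), and in these 7 no mutant H3K27ac lay in the gene's windows, as in 79.7% of all genes with a member. Rps15a had the longest gap, 14323 bp, with 85.4% of its 7435-bp member under control H3K27ac, and Rpl34 had 100% and 8405 bp. Rpl27a and Rplp2 followed at 5135 and 3930 bp. Mitochondrial ribosomal protein genes had one in 12 of 41 (29.3%), led by Mrpl35 at 9175 bp, Mrpl50, Mrpl52 and Mrpl53. Translation factors had one in 10 of 38 (26.3%), a list that also takes in lysine methyltransferases of elongation factors by name. Eif3f and Eif3g encode subunits of the initiation factor eIF3 and lay at 16664 and 12781 bp, with 43.3% and 99.8% of the member under control H3K27ac. Eif2b4 lay in a 71138-bp control peak at 11860 bp, and Eif5a2 lay at 8779 bp.

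Proteasome genes had a member in 9 of 24 cases (37.5%, 21.2 to 57.3%). Psme2, in the run named above, had a 9308-bp member with 89.2% of its bases under control H3K27ac. Psmc4, an ATPase of the regulatory particle, had 84.5% and a gap of 10904 bp, and Psma4, of the core particle, 100% and 9873 bp. Psme1 lay at 17070 bp. The median gap over the 11 members at proteasome genes was 6575 bp. Splicing factors had a member in 9 of 31 cases (29.0%), among them the Sm proteins Snrpd2, Snrpd3 and Snrpe at 8549, 7603 and 7324 bp, and Hnrnpm at 3918 bp.

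Respiratory chain genes had a member in 8 of 45 cases (17.8%, 9.29 to 31.3%), the list whose interval lay below 31.9%. They were led by Ndufa10, of complex I, at 11591 bp, Cox8c at 10746 bp, the assembly factor gene Cox20 at 5667 bp and Ndufa5 at 3504 bp. RNA polymerase II and general factor genes had one in 7 of 35, led by Taf15 at 9841 bp, Gtf2f1 at 7101 bp, Ccnt2 at 5303 bp and Med28 at 3110 bp. With 20 lists compared and no test, a list on either side of the background is a description.

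Zinc finger genes of the Zfp series had a member in 44 of 135 cases (32.6%, 25.3 to 40.9%), almost the share of all genes. At 40 of the 44 no mutant H3K27ac lay in the windows, against 79.7% of all genes with a member. Zfp958, Zfp266 and Zfp112 lay 21960, 21875 and 21590 bp from mutant H3K27ac, and the farther of 2 members at Zfp52 lay 17250 bp away. Control H3K27ac covered 58.1% of the Zfp958 member, 92.3% at Zfp266 and 65.3% at Zfp112, and 85.9% and 100% of those at Zfp52. The median gap over the 45 members of this list was 6102 bp, against 4031 bp over all members at gene windows. In 40 of the 45 (88.9%) the control H3K27ac peak was absent as a whole, against 78.3% of all members at gene windows.

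Chromatin remodellers had a member in 4 of 12 cases, at Chd1, Ep400, Smarcd3 and Actl6a. Chd1, an ATPase that binds H3K4me3, had an 8044-bp member wholly under a 12147-bp control peak that was absent in the mutant. Ep400 and Actl6a lay in control peaks of 14326 and 5739 bp that were still called in part. Polycomb and H3K9 methylation genes had one in 2 of 15, at Pcgf5 and the methyltransferase gene Suv39h2. Cell cycle genes had one in 5 of 22, among them Cdkn1a, Ccnb2, Mad2l1 and E2f7. Cdkn1a, the p21 inhibitor and a known target of Hdac1 repression, had 89.9% of its 4213-bp member (chr17:29088183-29092395) under a 26508-bp control peak and kept mutant H3K27ac elsewhere in its windows.

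Genes of differentiated tissues had a double-marked peak in 5 of 40 cases, against 5599 of the 21883 protein-coding genes in the table, and 4 of the 5 had a member. They were Olig2 and Snap25 of the nervous system, Ckm of muscle and Pdx1 of the pancreas. The control H3K27ac was slight at Olig2 (2.39% of the 7275-bp member) and Snap25 (9.27%), and larger at Ckm (34.7%) and Pdx1 (65.3%). The median over the 4 members was 22.0%, against 62.3% over members at gene windows. Ckm and Pdx1 kept mutant H3K27ac elsewhere in their windows.

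**Figure D4:**
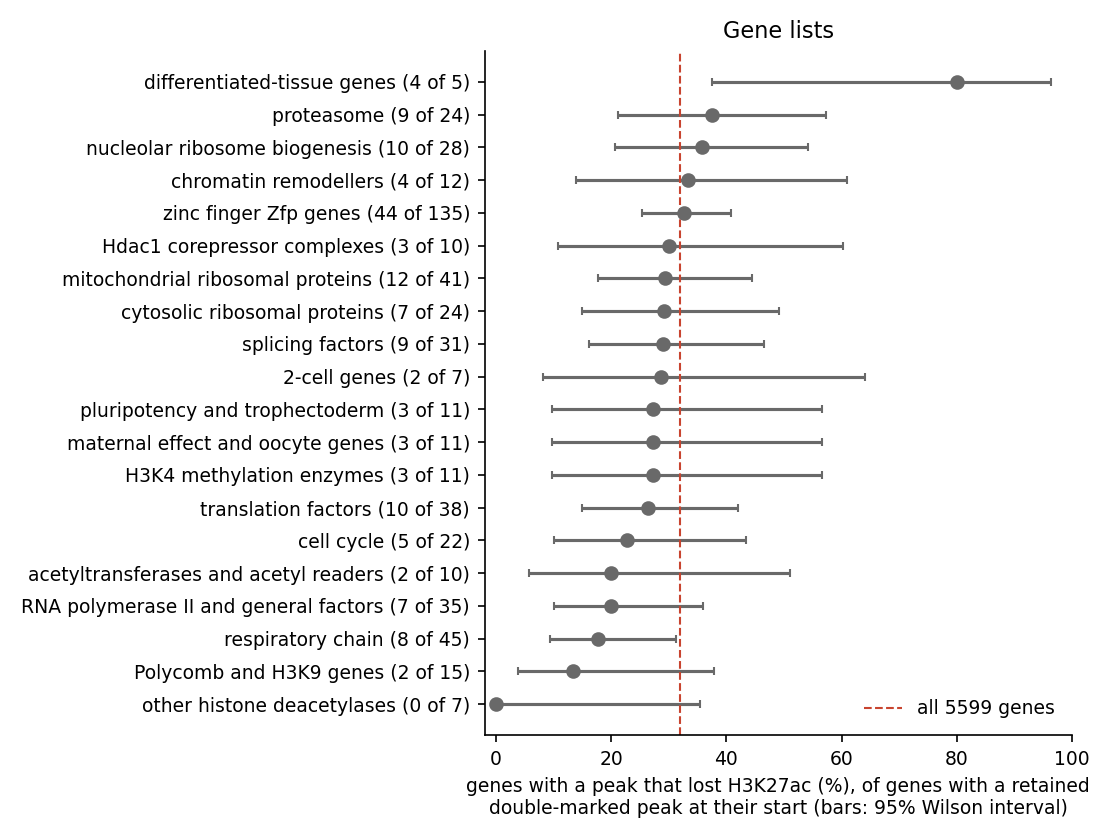
Percent of genes with at least 1 member among genes of each list with a double-marked retained peak at their window, with counts in the labels and 95% Wilson intervals as bars; the dashed line is the 31.9% of all 5599 genes. The intervals of 18 of 20 lists include the line, that of respiratory chain genes ends at 31.3%, and that of differentiated-tissue genes starts at 37.6% with 5 genes.

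Promoter sequence was also outside the rule. RefSeq starts of protein-coding genes lay in members in 1520 cases, for 1299 genes, and each promoter is the 250 bases before to 50 after a start. The median ratio of observed to expected CpG was 0.798 in members, 0.788 in peaks keeping H3K27ac, 0.751 in those gaining it, 0.752 in those without it, and 0.586 over all 20084 listed starts. It exceeded 0.6 in 76.8% (74.6 to 78.8%) of member promoters and 75.5% (74.0 to 77.0%) of keeping ones. The intervals of promoters that lost and kept H3K27ac overlapped. Starts of 1 gene can share sequence, so promoters are not independent.

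The ETS motif CCGGAAG, searched on both strands, was in 21.5% (19.5 to 23.6%) of promoters in members and 20.4% (19.1 to 21.8%) in peaks keeping H3K27ac. It was in 13.2% of those gaining H3K27ac, 10.8% (9.47 to 12.3%) of those without it and 11.9% of all listed promoters. The intervals of promoters that lost and kept H3K27ac overlapped, and both lay above those of retained promoters without control H3K27ac. The YY1 motif ATGGCGG was in 8.16% (6.89 to 9.64%) of member promoters, 8.81% of keeping ones, 6.51% (5.37 to 7.88%) of gaining ones, 5.0% of those without H3K27ac and 5.29% of all, so the intervals of member and gaining promoters overlapped. The GC box GGGCGG was in 67.2% of member promoters, 64.2% of keeping, 68.6% of gaining and 69.5% of those without H3K27ac, against 47.0% over all. TATAAA was in 7.11%, 6.28%, 6.91% and 6.05% in the same order, against 12.7% over all. For both motifs each retained class stood on the same side of all listed starts. CCAAT was in 38.1% of member promoters and 38.1% of all. In all 9 motifs were counted. The cyclic AMP response element TGACGTCA was in 4.34% (3.43 to 5.49%) of member promoters, 3.28% (2.72 to 3.94%) of keeping, 2.42% (1.75 to 3.33%) of gaining and 3.22% (2.50 to 4.14%) of those without H3K27ac, and in 2.30% of all. Its interval in members lay above that in gaining promoters and overlapped those of the other classes. The E box CACGTG was in 9.80% of member and 10.2% of keeping promoters, the Nr5a2 motif TCAAGGTCA in 0.197% and 0.331%, and the homeobox motif TAATCC in 5.59% and 5.38%. Matches to different motifs can overlap each other, and a match is a description of the letters, not evidence of binding.

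**Figure D5:**
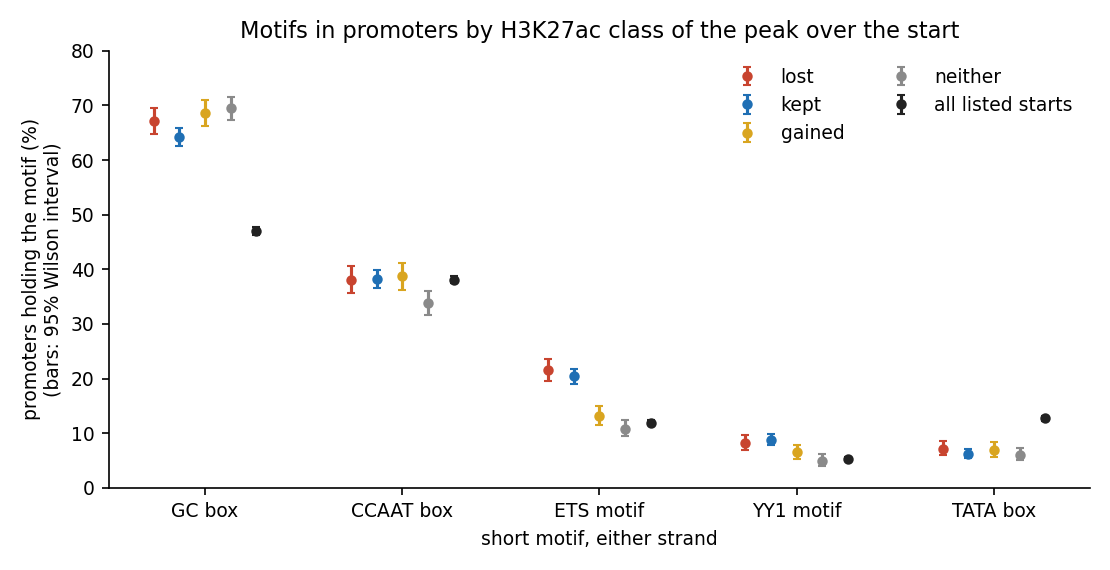
Percent of 300-base promoters holding 5 of the 9 short motifs counted, on either strand, by the H3K27ac class of the retained H3K4me3 peak over the start (lost, kept, gained, neither) and over all listed starts, with 95% Wilson intervals. The ETS motif is in 21.5% and 20.4% of promoters in the lost and kept classes and in 13.2% and 10.8% in the gained and neither classes.

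Non-coding genes also lay in members. Starts of long non-coding RNAs were in 264 members (6.43%), against 5.70% of peaks keeping H3K27ac, 8.32% of those gaining it and 9.22% of those without it. Hairpins of 29 listed microRNAs lay in the 4106 members, against 53 in the 10322 peaks keeping H3K27ac, 17 in the 4171 gaining it and 38 in the 5067 without it. Those in members include Mirlet7i, of the let-7 family, the Mir195a and Mir497 pair, and Mir499. The lists hold no RNA values, so expression of these RNAs was not measured here.

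The limits of the rule cut through a continuous range. The narrowest and widest members were 2000 and 9993 bp, and the nearest peaks outside with the same overlaps were 1997 and 10044 bp. Below the range 2029 peaks had the same overlaps and above it 214. The smallest overlaps with mutant H3K4me3 and control H3K27ac were both 1 bp. The members closest to mutant H3K27ac missed it by 1 bp, at Il9r and Snrnp25, by 2 bp, at Pinlyp and Xrcc1, and by 5 bp, at chr16:38133678-38138594. In all 57 members lay within 100 bp of it, and 71 peaks counted as keeping H3K27ac overlapped it by less than 100 bp. Mutant H3K27ac covered less than 10% of 473 of the peaks counted as keeping it (4.58%).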

How the data were processed

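Per the labels, 16 libraries of late 2-cell embryos formed 8 groups of 2, and the authors deposited 1 peak list for each of the 4 immunoprecipitation groups, with chromosome, start and end. Per the submitters' processing notes, CASAVA, Trimmomatic, Bowtie2, SAMtools, Picard, MACS2 and deepTools were used with mm10 (GRCm38), with no versions or roles. Pooling of the 2 libraries before calling and the calling threshold are not given in the sources used here. Broader or joined peaks in 1 list change which peaks overlap.

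Starts were taken as counted from 0 and are given here 1-based. Overlap means at least 1 bp. Genes and promoters came from RefSeq tables of GRCm38.p6: 17491 of 21883 protein-coding genes (79.9%) had a listed start, and other genes entered by both gene ends. Of 8 promoters wanted for printing, 6 were listed. Shares have 95% Wilson intervals. Interval functions were tested on simulated intervals. Python 3.11.15, numpy 2.4.6, pandas 2.3.3, scipy 1.17.1 and matplotlib 3.10.9 were used.

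The members and the gene lists were chosen with earlier results of these data known. Named genes are the 10 members farthest from mutant H3K27ac at 1 gene, the 5 widest wholly under control H3K27ac, the 3 widest far from genes (1 of which is not reported here), those nearest the limit, each list gene with a member for lists of chromatin enzymes and early development, and up to 4 per other list, farthest from mutant H3K27ac first. Runs, microRNAs and genes named as keeping H3K27ac were chosen after their values were seen. Alternatives covered overlap, loss, merging, list size, width and gene windows.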

Additional observations from a re-analysis of the deposited data

How the results depend on the processing

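Alternatives were computed for 8 results, the last of which, the difference in the lost share between gene windows and elsewhere, was added after the data were seen; of the values under alternatives, 35 stayed within the limits set and 36 moved. The number of members was 2271 with at least 50% of the peak under mutant H3K4me3 and control H3K27ac, and 1253 at widths of 5000 to 10000 bp. The share that lost H3K27ac was 24.5% under the 50% overlap, 23.7% with no mutant H3K27ac within 1 kb, 31.7% with up to 10% of the peak under mutant H3K27ac, 29.7% with peaks under 1 kb apart merged, 30.8% with the mutant H3K27ac list cut by width to the control number, 35.0% at 2000 to 5000 bp and 19.9% at 5000 to 10000 bp. The ratio of gaining to losing peaks, 1.02, was in the same order 1.55, 1.38, 0.811, 1.11, 0.833, 1.07 and 0.899. The 50% overlap, the 1-kb distance, the 10% allowance and the cut list each treat gain and loss unequally. The side to which they moved the ratio was thus largely set by the setting. Merging and the 2 width ranges treat both alike and gave 1.11, 1.07 and 0.899, so the ratio had no settled direction. The share at gene windows was 34.5% at 2000 to 5000 bp, 45.1% at 5000 to 10000 bp, 35.7% with 1-kb windows, 47.1% with 5-kb windows and 30.2% over listed starts alone, an alternative added later. The share losing whole control H3K27ac peaks was 66.5% under the 50% overlap, 80.8% without mutant H3K27ac within 1 kb, 68.8% with up to 10% allowed and 76.2% with the cut list. The share with mutant H3K27ac within 5 kb was 63.1%, 52.1% and 64.2% under the first 3 of these, 57.2% with merging, 57.5% with common limits on gap and width, 51.9% with the cut list, and 81.7% within 10 kb. The median under mutant H3K4me3 was 93.7% under the 50% overlap, 88.4% with merging, 90.0% at 2000 to 5000 bp and 84.2% at 5000 to 10000 bp. Beyond what the settings fix, the cause of these shifts was not tested. The difference at gene windows stayed between 4.75 and 7.49 percentage points under each alternative. No paired analysis was possible because the 2 libraries of a group share 1 list, and for the same reason no library could be left out. Depth is unknown.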
